A study of Mus musculus with 12 samples.

Results

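The genes described here handle cholesterol that leaves cells and fat that arrives on lipoproteins: Apoe, Apoc1, Abca1, Abcg1, Nr1h2, Nr1h3, Mylip, Lpl, Lipa and Scarb1. They were chosen by gene symbol, with earlier results of these data known. All 10 were present among the 23479 symbols of the count table and passed the filter on low counts (15082 symbols tested). Bulk RNA came from 12 prostate tumours of mice, 3 in each of 4 groups. Every tumour grew from 100000 PTE-82 cells, TMPRSS2-ERG+ mouse prostate cancer cells, injected into the prostate of C57BL/6J mice in 40 µl of PBS and Matrigel, and was taken after perfusion on day 17. The IgG group received control antibody. The anti-CSF1 group received an antibody against CSF1, the growth factor that keeps macrophages alive, on days 9 and 14. The Lupron group received 0.6 mg of Lupron per mouse on day 4, a drug that lowers testosterone, and the Lupron/anti-CSF1 group received both. All tumours come from a single line, and the labels do not say whether the Lupron group also had control IgG.

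Cells export surplus cholesterol through the membrane pumps ABCA1 and ABCG1 onto lipoprotein particles. APOE and APOC1 are protein parts of such particles. The pumps and APOE are made under the liver X receptors, LXR alpha (Nr1h3) and LXR beta (Nr1h2), which sense oxidised sterols and also induce Mylip, a ligase that sends LDL receptors to degradation. SCARB1 binds HDL, lipoprotein lipase (Lpl) cuts triglycerides in particles at the vessel wall, and lysosomal acid lipase (Lipa) frees cholesterol from particles taken up. Macrophages carry much of this machinery, and fat cells are rich in Lpl.

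In mm10, Apoe (chr7:19696109-19699188, minus strand) and Apoc1 (chr7:19689481-19692660, minus strand) are neighbours, 3448 bases apart. Abca1 lies at chr4:53030787-53159895, Nr1h3 at chr2:91184061-91202834, Nr1h2 at chr7:44549616-44553951, Lipa at chr19:34492318-34527474 and Scarb1 at chr5:125277087-125341094, all on the minus strand. Abcg1 (chr17:31057675-31117988), Mylip (chr13:45389742-45412022) and Lpl (chr8:68880491-68907448) are on the plus strand. Abca1, Apoe and Nr1h3 fell under the antibody, and the 250 bases before the most upstream start site that RefSeq gives for each are shown because they fell together. The LXR motif searched was a pair of AGGTCA copies with 4 bases between, on both strands, with up to 2 mismatches. None of the 9 windows of 300 bases that RefSeq (GRCm38.p6) gave for 6 members held it, against 3.02% of 32851 windows. With 3 mismatches allowed, a setting chosen after seeing this, 21.9% of all windows held a pair, and of the members' windows only that of Abca1, 67 bases before the start. The Abca1 window also held the E-box CACGTG, as 7.15% of windows did. Capitals mark these matches, which describe letters and not binding.
Abca1 (chr4:53159896-53160145, minus strand): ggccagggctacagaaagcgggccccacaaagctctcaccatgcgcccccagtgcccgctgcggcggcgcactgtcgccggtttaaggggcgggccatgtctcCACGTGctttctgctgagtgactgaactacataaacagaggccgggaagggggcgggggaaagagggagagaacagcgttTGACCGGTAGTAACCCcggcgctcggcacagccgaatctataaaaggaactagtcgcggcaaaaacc
Apoe (chr7:19699189-19699438, minus strand): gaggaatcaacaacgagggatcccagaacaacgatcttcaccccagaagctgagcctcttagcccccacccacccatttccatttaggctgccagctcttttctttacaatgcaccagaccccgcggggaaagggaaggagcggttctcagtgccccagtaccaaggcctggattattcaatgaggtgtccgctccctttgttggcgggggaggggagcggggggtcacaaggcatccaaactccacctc
Nr1h3 (chr2:91195117-91195366, minus strand): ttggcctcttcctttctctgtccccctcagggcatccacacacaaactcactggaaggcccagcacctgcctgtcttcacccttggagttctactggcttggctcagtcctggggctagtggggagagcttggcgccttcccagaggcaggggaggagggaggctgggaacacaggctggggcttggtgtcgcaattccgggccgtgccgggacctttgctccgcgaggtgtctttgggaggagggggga

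Totals per library ran from 20584363 to 29965355 counts, and RNA integrity numbers from 8.2 to 9.8. IgG replicates 2 and 3 stood apart in smooth muscle and fat cell markers. In replicate 3 the 5 smooth muscle markers summed to 10499 CPM (counts scaled by TMM-corrected library totals) and the 6 fat cell markers to 2045 CPM, the highest of the 12 libraries, and the 5 proliferation markers to 75.1 CPM, the lowest. Replicate 2 was next highest, with 2336 and 303 CPM of smooth muscle and fat cell markers. In seminal vesicle RNA, Lupron replicate 2 was highest, with 363005 CPM over 5 markers, and it had the lowest TMM factor (0.772). IgG replicate 2 (104111 CPM) and anti-CSF1 replicate 1 (91561 CPM) followed. The 10 macrophage markers summed to between 414 and 1298 CPM under IgG, 155 and 303 under anti-CSF1, 950 and 1232 under Lupron and 175 and 244 under both, and no marker was at 0 in any library. Of the keratins of luminal prostate epithelium, Krt8 ran from 26 to 286 CPM and Krt18 from 48.8 to 658 CPM over the 12 libraries. The labels do not state that each library is a separate mouse, so p-values measure only the spread between these samples. How much of that spread is technical is not known.

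The antibody effect, averaged over both Lupron states (6 tumours against 6), asks what CSF1 blockade did to these genes. Apoe, Nr1h3 and Abca1 fell, and Abcg1 had a like estimate that did not pass. Nr1h2, Scarb1, Lipa and Mylip did not pass, and Apoc1 and Lpl varied most between tumours. In edgeR's quasi-likelihood test, with p adjusted over all genes after Benjamini and Hochberg, 3 of the 10 passed, where 1.87% of all tested genes passed. All 3 were lower (1.79% of tested genes) and 0 higher (0.0796%). Because the genes were chosen with earlier results of these data known, a count above these shares is not independent evidence. At an unadjusted p under 0.05 there were 6 (19% of tested genes). DESeq2 also called 6 (9.4%): these 3 with Apoc1, Abcg1 and Lpl. The median estimate of the 10 was −1.01 on the log2 scale, against 0.02 for all tested genes. All 6 antibody tumours lay below all 6 others for 3 members, Apoe, Abca1 and Abcg1, as for 1.69% of tested genes, and above them for 0 (0.703%). In bulk RNA, fewer cells of a type and less RNA per cell cannot be told apart.

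Apoe had the highest level of the members per kilobase of exon: with IgG it stood at 526 ± 186 CPM per kb (SD, n = 3), against 2.35 ± 0.33 for Abcg1, the lowest. Exon length here is the union over all annotated transcripts. The Apoe level was 1430, 1269 and 674 CPM in IgG replicates 1, 2 and 3, and 430, 268 and 429 CPM under anti-CSF1. It was 1625, 1715 and 1610 CPM under Lupron, and 374, 285 and 246 CPM under both. Lupron tumours were highest, above every IgG tumour, and the antibody groups overlapped each other at the bottom. The averaged antibody effect was −2.02 ± 0.23 (log2 fold change ± SE, adjusted p = 0.0055 by edgeR), a 4.04-fold fall, and it passed in each of 12 fits that left out a library.

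Apoe fell under the antibody as most macrophage markers did. Of the 10 macrophage markers, 8 passed as lower in the same comparison, with a median of −2.35. Other lists had lower estimates too: the luminal genes Krt8, Krt18, Pbsn and Tmprss2 (Tmprss2 passed, at −3.16 ± 0.69, edgeR adjusted p = 0.0452), all 5 smooth muscle markers (0 passed, 5 at an unadjusted p under 0.05, median −2.47) and all 4 tested skeletal muscle markers (0 passed, 2 at an unadjusted p under 0.05, median −1.79). In the endothelial, fibroblast, seminal vesicle, proliferation and neutrophil lists 0 genes passed by edgeR and 0 had an unadjusted p under 0.05. Of all tested genes, 1.87% passed and 19% had an unadjusted p under 0.05. The part of any of these cell types in the result was not tested. Divided by the summed macrophage markers, Apoe gave 1.62, 0.978 and 1.63 under IgG, 1.42, 1.72 and 1.65 under anti-CSF1, 1.32, 1.81 and 1.58 under Lupron, and 1.53, 1.45 and 1.41 under both. The 4 groups overlapped on this ratio, which was not tested and weighs most the markers with the highest levels. From IgG to Lupron, where Apoe was higher, 5 of the 10 marker estimates were higher and 5 lower. Group means rose for C1qa (157 to 248 CPM) and fell for Mrc1 (94.1 to 57.1 CPM) and Cd163 (22.6 to 6.63 CPM). Mertk stayed near level: 38.0 CPM under IgG, 35.5 under anti-CSF1, 42.4 under Lupron and 40.3 under both. The genes with levels most like that of Apoe over the 12 libraries were Aoah (Pearson's r = 0.987), C1qb (0.986), C1qa (0.979), Ppfia4 (0.977) and Cd22 (0.975). C1qa and C1qb encode complement subunits that macrophages make, and both are among the 10 markers.

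**Figure D1:**
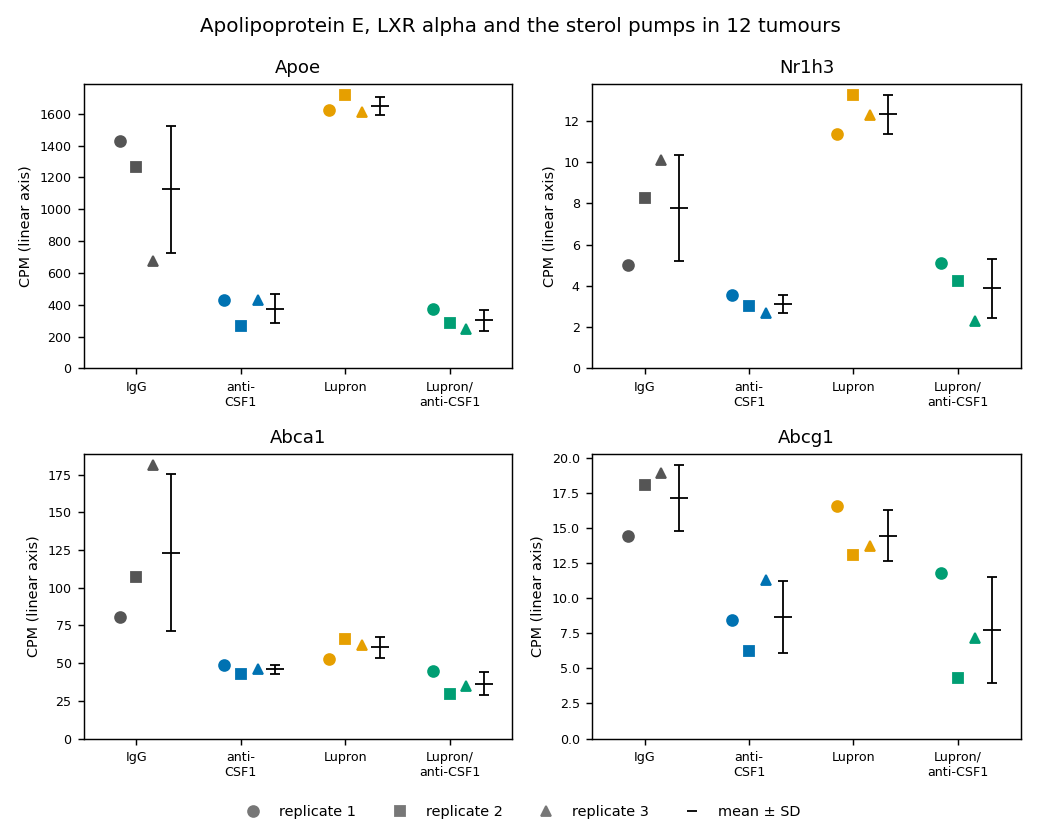
Levels of Apoe, Nr1h3, Abca1 and Abcg1 in CPM (linear axes), with 1 point per tumour by treatment group and the mean ± SD of 3 tumours beside them. For Apoe the 6 antibody tumours sit between 246 and 430 CPM and the other 6 between 674 and 1715 CPM.

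Of the LXR genes, Nr1h3 passed and Nr1h2 did not, and the difference between them was not tested. Nr1h3 (LXR alpha) was low: 5.02, 8.26 and 10.1 CPM under IgG, 3.57, 3.03 and 2.70 under anti-CSF1, 11.4, 13.3 and 12.3 under Lupron, and 5.12, 4.21 and 2.31 under both. Lupron tumours were again highest and did not overlap IgG tumours, while a combination tumour (replicate 1) lay just above IgG replicate 1. The averaged antibody effect on Nr1h3 was −1.50 ± 0.25 (adjusted p = 0.0155 by edgeR). It passed in 8 of the 12 fits. The call ended when replicate 2 or 3 of anti-CSF1, replicate 2 of Lupron or replicate 2 of the combination was left out, with adjusted p up to 0.0648.

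Nr1h2 (LXR beta), the form found in most tissues, had 41.9, 39.6 and 52.9 CPM under IgG, 40.8, 47.2 and 42.0 under anti-CSF1, 42.6, 33.1 and 40.8 under Lupron, and 36.3, 24.9 and 39.0 under both. Neighbouring groups overlapped throughout, and the effect was −0.13 ± 0.15 (95% interval −0.46 to 0.19, adjusted p = 0.62 by edgeR). Nr1h3 counts over Nr1h2 counts ran from 0.12 to 0.209 under IgG, from 0.0643 to 0.0876 under anti-CSF1, from 0.267 to 0.40 under Lupron and from 0.0591 to 0.169 under both. Each antibody group lay below the Lupron group on this ratio, and anti-CSF1 alone lay below IgG.

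By group mean, both cholesterol pumps were highest under IgG, then Lupron, anti-CSF1 and the combination. Abca1 had 80.8, 107 and 181 CPM under IgG, 48.8, 42.9 and 46.3 under anti-CSF1, 53.0, 66.2 and 62.1 under Lupron, and 44.9, 29.8 and 34.6 under both. IgG tumours were highest, Lupron tumours lay below all of them and above both antibody groups, and those 2 overlapped. The averaged antibody effect was −1.08 ± 0.20 (adjusted p = 0.0203 by edgeR). It passed in 6 of the 12 fits. The call ended when replicate 2 or 3 of anti-CSF1, of Lupron or of the combination was left out, with adjusted p up to 0.081. With the replicate number as a block it was −1.06 (adjusted p = 0.0505), which ends the call.

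Abcg1, the pump that loads HDL, had 14.4, 18.1 and 18.9 CPM under IgG, 8.47, 6.21 and 11.3 under anti-CSF1, 16.5, 13.1 and 13.7 under Lupron, and 11.8, 4.32 and 7.13 under both. The groups without antibody overlapped each other and lay above both antibody groups. Its effect was −0.94 ± 0.25 (adjusted p = 0.0906 by edgeR) and passed in 2 of the 12 fits, when replicate 1 of IgG or of the combination was left out. Over the 12 libraries, which share 4 treatments, Apoe (as log2(CPM + 1), like every level correlated here) correlated with Nr1h3 at r = 0.844, with Abcg1 at 0.779 and with Abca1 at 0.565. Without IgG replicates 2 and 3 these values were 0.873, 0.83 and 0.855. Abca1 correlated with Lpl at 0.82, with Abcg1 at 0.815, with Apoc1 at 0.76 and with Mylip at 0.717. Those values became 0.211, 0.826, 0.254 and 0.228 without IgG replicates 2 and 3.

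**Figure D2:**
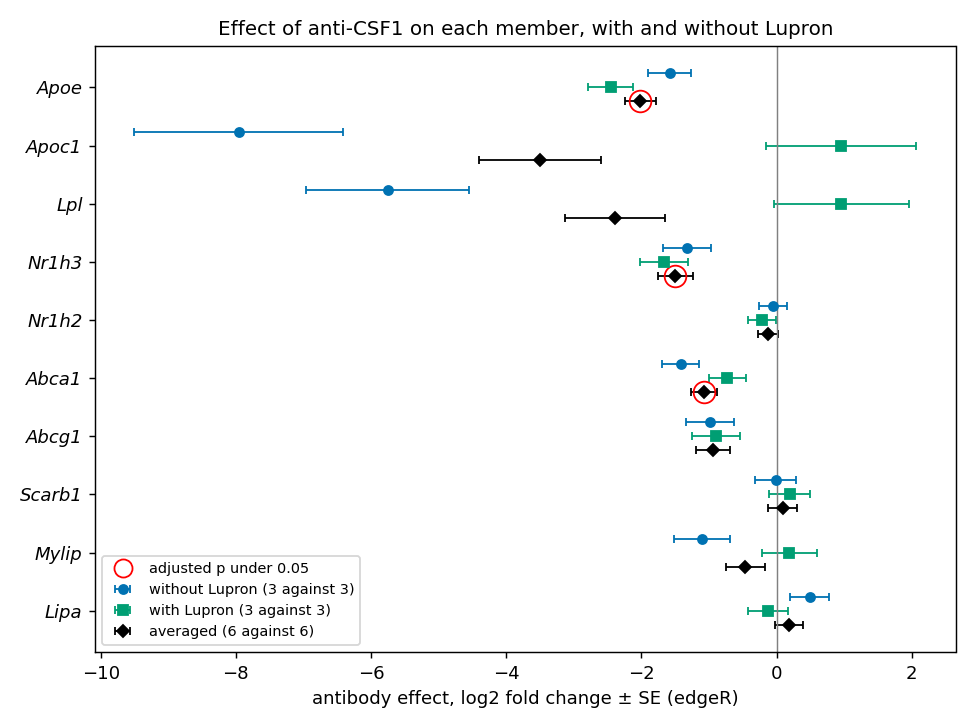
Antibody effect on each of the 10 genes as log2 fold change ± SE from edgeR, without Lupron, with Lupron and averaged, with red rings at an adjusted p under 0.05. Rings mark the averaged effects of Apoe (−2.02), Nr1h3 (−1.50) and Abca1 (−1.08), and Apoc1 and Lpl lie on opposite sides of 0 without and with Lupron.

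Within tumours not given Lupron, anti-CSF1 against IgG called 0 of the 10 by edgeR, where 0.00663% of all tested genes passed. At an unadjusted p under 0.05 there were 7 (22.8% of tested genes), and DESeq2 called 5 (11.5%): Apoe, Apoc1, Abca1, Nr1h3 and Lpl. In 7 members the anti-CSF1 tumours all lay below the IgG tumours, as in 12.8% of tested genes, and in 0 above them (11.1%). Estimates were −1.58 ± 0.32 for Apoe, −1.33 ± 0.36 for Nr1h3, −1.42 ± 0.28 for Abca1 and −0.98 ± 0.35 for Abcg1 (edgeR adjusted p = 0.0875, 0.0926, 0.0875 and 0.143). Without IgG replicates 2 and 3 together, which leaves 1 IgG tumour, they were −1.94, −0.71, −0.83 and −0.75. The effects averaged over Lupron were then −2.19, −1.18, −0.77 and −0.82. Without IgG replicate 1 the count was 5, where 2611 of all tested genes passed. Without IgG replicate 3 it was 2, Apoe and Abca1, where 168 passed. With all 12 libraries 1 gene passed.

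Among Lupron tumours, the combination against Lupron also called 0 of the 10 by edgeR (0% of all genes). An unadjusted p under 0.05 was found for 4 (4.26%), and DESeq2 called 2 (1.51%), Apoe and Nr1h3. In 4 members, Apoe, Nr1h3, Abca1 and Abcg1, every combination tumour lay below every Lupron tumour, as for 6.93% of tested genes, and 0 lay above (5.86%). Apoe was at −2.45 ± 0.33 (edgeR adjusted p = 0.058), Nr1h3 at −1.66 ± 0.36 (0.136), Abca1 at −0.73 ± 0.28 (0.791) and Abcg1 at −0.90 ± 0.35 (0.873). Apoe passed in edgeR when the fit held only these 2 groups (0.00312) or left out IgG replicate 2 or 3. Nr1h3 passed without IgG replicate 3. Of all tested genes, 204 passed with only these 2 groups, 13 without IgG replicate 2 and 210 without IgG replicate 3.

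**Figure D3:**
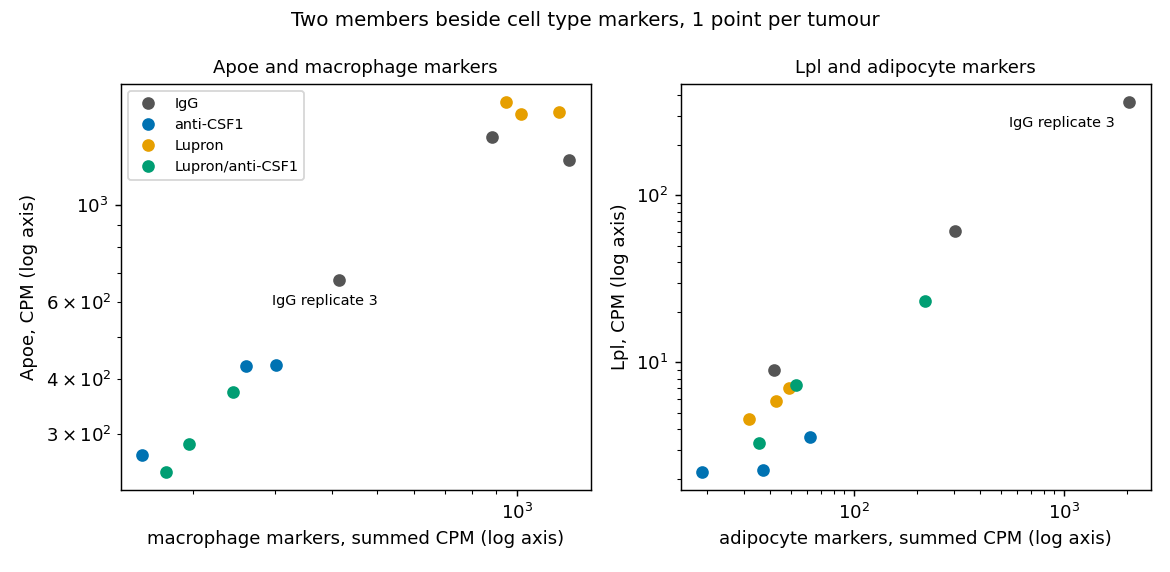
Apoe against the summed macrophage markers and Lpl against the summed fat cell markers, in CPM on log axes, with 1 point per tumour coloured by group. IgG replicate 3 has 674 CPM of Apoe at 414 CPM of macrophage markers, and the highest Lpl, 362 CPM, at 2045 CPM of fat cell markers.

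Lpl and Apoc1 were highest in the 3 libraries highest in fat cell markers, though in no fixed ratio to them. Lpl had 9.06, 60.9 and 362 CPM in IgG replicates 1, 2 and 3, and 2.21, 3.55 and 2.28 CPM under anti-CSF1. It had 5.88, 7.06 and 4.59 CPM under Lupron, and 23.3, 3.31 and 7.33 CPM under both. IgG replicates 3 and 2 and the combination's replicate 1 were the 3 highest tumours, and anti-CSF1 tumours all lay below IgG and Lupron tumours but overlapped the combination. Apoc1, whose protein slows lipoprotein lipase, was highest in the same 3 tumours: 4.45, 27.0 and 118 CPM under IgG, 4.26, 5.28 and 2.88 under Lupron, and 18.3, 1.12 and 4.51 under both. With anti-CSF1 it had 12, 0 and 4 counts in replicates 1, 2 and 3, the lowest of the 12 libraries.

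The 6 fat cell markers summed to 41.7, 303 and 2045 CPM in IgG replicates 1, 2 and 3, to 217 CPM in the combination's replicate 1 and to between 18.9 and 62.0 CPM in the other 8 libraries. Apoc1 over this sum ran from 0.0575 to 0.107 under IgG, 0 to 0.0216 under anti-CSF1, 0.0907 to 0.107 under Lupron and 0.0318 to 0.0848 under both. For Lpl the ranges were 0.177 to 0.217, 0.0573 to 0.117, 0.138 to 0.144 and 0.0938 to 0.138. These ratios were not tested. Adipoq, the fat cell hormone adiponectin, had 1.48, 19.1 and 140 CPM in the IgG tumours and 23.2 CPM in the combination's replicate 1. It was at 0 counts in 5 libraries: all 3 under anti-CSF1, Lupron replicate 2 and the combination's replicate 2. Fabp4, which endothelial cells also express, gave nearly all of the sum in these. The antibody estimates of the 6 markers lay on opposite sides of 0 in the 2 arms. All 6 were lower without Lupron (median −12.30) and all 6 higher among Lupron tumours (median 2.86). Under anti-CSF1, Adipoq, Plin1, Cidec and Lep had 0 counts in all 3 tumours, and Cfd had 4 counts over the group. The −12.30 therefore rests on the floor and does not measure the size of a fall. By edgeR 0 passed in either arm, with 6 and 0 at an unadjusted p under 0.05 (22.8% and 4.26% of tested genes). Averaged, all 6 were lower (median −4.90, which rests on the same 0 counts). Of these, 0 passed by edgeR (4 had an unadjusted p under 0.05, against 19% of tested genes). IgG replicates 3 and 2 were also highest in smooth muscle markers (10499 and 2336 CPM) and skeletal muscle markers (158 and 43.7 CPM). The combination's replicate 1 (571 and 9.15 CPM) lay below Lupron replicate 2 (1194 and 19.8 CPM) in these, and above the other combination tumours. The part of fat or muscle cells in the Lpl and Apoc1 values was not tested.

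**Figure D4:**
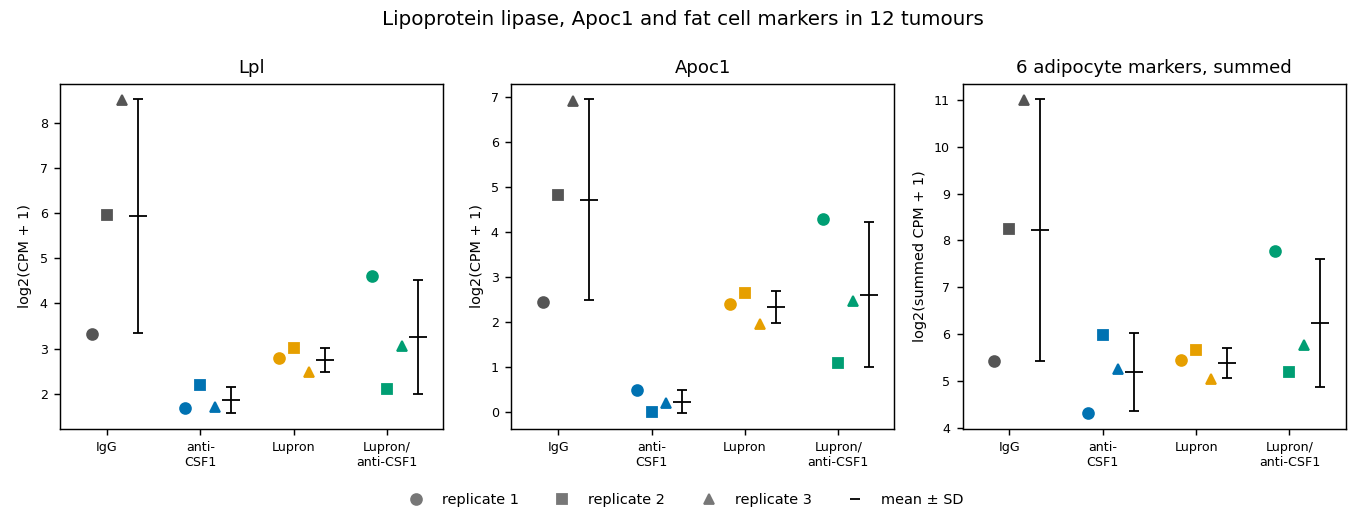
Lpl, Apoc1 and the summed fat cell markers as log2(CPM + 1), with 1 point per tumour by group and the mean ± SD of 3 tumours. IgG replicates 3 and 2 and replicate 1 of Lupron/anti-CSF1 are the 3 highest points in each panel.

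The averaged antibody effect was −2.39 ± 0.74 for Lpl and −3.50 ± 0.90 for Apoc1 (edgeR adjusted p = 0.136 and 0.0841). Each passed in 1 of 12 fits, without IgG replicate 1, where 1577 of all tested genes passed (282 with all 12 libraries). Without IgG replicates 2 and 3 together, the effects were −0.40 for Lpl (adjusted p = 0.922) and −1.77 for Apoc1 (0.657). Without Lupron the estimates were −5.75 ± 1.21 for Lpl and −7.96 ± 1.54 for Apoc1 (edgeR adjusted p = 0.0903 and 0.0875). Among Lupron tumours they were 0.96 ± 1.00 and 0.96 ± 1.11 (both 1.00), and removal of the combination's replicate 1 turned them to −0.12 and −0.53.

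Apoe and Apoc1, although neighbours, did not keep a ratio. Apoc1 counts divided by Apoe counts gave 0.00311, 0.0213 and 0.175 in IgG replicates 1, 2 and 3, and 0.00179 to 0.00308 under Lupron. The ratio ran from 0 to 0.000949 under anti-CSF1, below every other tumour, and from 0.00393 to 0.0490 under both. Apoc1 correlated with Apoe at r = 0.311 over the 12 libraries and with Lpl at 0.959, or 0.339 and 0.937 without IgG replicates 2 and 3. The genes with levels most like that of Lpl were Clec3b (r = 0.992), the fatty acid receptor gene Cd36 (0.989), Tnxb (0.989), Nnat (0.986) and Plin4 (0.985), which coats lipid droplets in fat cells.

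The genes for uptake and breakdown did not pass the test. Scarb1, the HDL receptor, had 45.7, 34.9 and 59.3 CPM under IgG, 45.4, 40.6 and 53.0 under anti-CSF1, 63.6, 25.0 and 47.7 under Lupron, and 49.5, 53.0 and 53.6 under both. All neighbouring groups overlapped, and the averaged antibody effect was 0.09 ± 0.21 (95% interval −0.38 to 0.56, adjusted p = 0.822 by edgeR). Its sign turned to −0.06 without Lupron replicate 2, the lowest library and the one with the most seminal vesicle RNA (363005 CPM over 5 markers).

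Lipa, the acid lipase, had 56.2, 50.4 and 23.0 CPM under IgG, 63.4, 51.7 and 66.9 under anti-CSF1, 73.2, 50.8 and 70.9 under Lupron, and 60.3, 60.6 and 57.9 under both. IgG replicate 3 was lowest. The effect was 0.18 ± 0.21 (95% interval −0.27 to 0.63, adjusted p = 0.625 by edgeR), and −0.0097 without IgG replicates 2 and 3. Mylip, the ligase, had 69.1, 60.3 and 194 CPM under IgG, 48.6, 43.8 and 57.6 under anti-CSF1, 50.7, 56.3 and 52.6 under Lupron, and 56.4, 40.6 and 84.8 under both. IgG replicate 3 was highest, and the effect was −0.46 ± 0.29 (95% interval −1.09 to 0.17, adjusted p = 0.393 by edgeR), or −0.14 without IgG replicates 2 and 3.

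**Figure D5:**
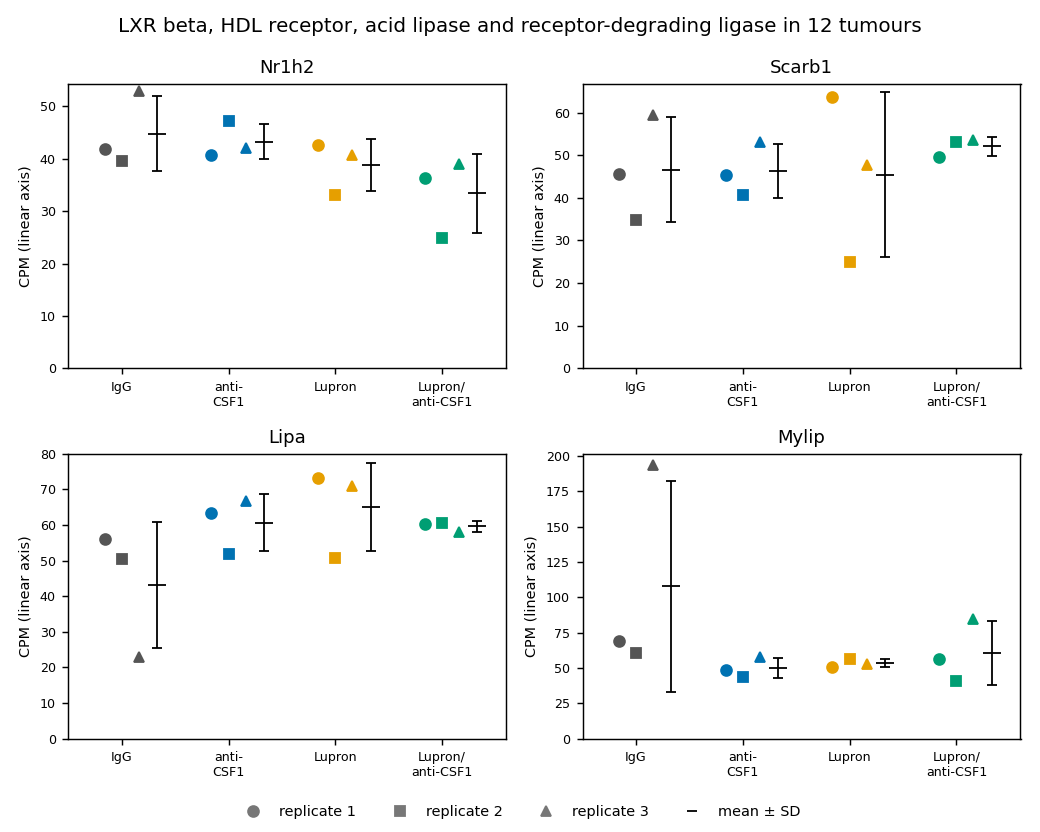
Levels of Nr1h2, Scarb1, Lipa and Mylip in CPM (linear axes), with 1 point per tumour by group and the mean ± SD of 3 tumours. IgG replicate 3 is the lowest point for Lipa (23.0 CPM) and the highest for Mylip (194 CPM).

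Lupron averaged over antibody (6 against 6) asks how the genes differed with Lupron. Testosterone was not measured in these data. By edgeR 0 of the 10 passed (0% of all tested genes), 1 had an unadjusted p under 0.05 (9.06%), and DESeq2 called 0 (0.0576%). That 1 was Abca1, at −0.68 ± 0.19 (adjusted p = 0.525). Nr1h3 was at 0.49 ± 0.25 (0.525) and Apoe at 0.12 ± 0.22 (0.836), and for 0 members did the 6 Lupron tumours all lie above (0.152% of tested genes) or below (0.278%) the 6 others.

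In Lupron against IgG, which shares its IgG tumours with the antibody comparison above, edgeR called 0 of the 10 (0% of all tested genes). An unadjusted p under 0.05 was found for 4 (16.4%), and DESeq2 called 2 (2.8%), Abca1 and Lpl. Apoe and Nr1h3 lay higher in all Lupron tumours, as did 11.1% of tested genes, and Abca1, Mylip and Lpl lay lower, as did 8.53%. Without IgG replicate 1 edgeR called 2 members and 653 of all tested genes. In the combination against anti-CSF1, edgeR called 0 (0% of all tested genes). Only Apoc1 had an unadjusted p under 0.05, 1 member (1.95%), and DESeq2 called 0 (0.0314%). Apoc1 lay higher in every combination tumour (4.75% of tested genes) and Nr1h2 lower (5.22%).

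The interaction, the antibody effect with Lupron minus that without, was called for 0 members by edgeR (0% of all tested genes). An unadjusted p under 0.05 was found for 3 (6.77%), and DESeq2 called 2 (1.3%). These 2 were Apoc1 (8.92 ± 1.86) and Lpl (6.71 ± 1.53), each with an edgeR adjusted p of 0.488. For Apoe it was −0.87 ± 0.45 (0.777) and for Abca1 0.69 ± 0.39 (0.811). A difference of the antibody effect with and without Lupron was therefore not shown for any member by edgeR.

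Other genes of the pathway, in 5 lists, were read in the averaged antibody comparison, where the median of all tested genes was 0.02. There 1.87% of tested genes passed by edgeR and 19% had an unadjusted p under 0.05. Of 15 tested LXR partners, corepressors and targets, 0 passed, 3 estimates were higher and 12 lower, the median was −0.24, and 1 had an unadjusted p under 0.05. Without Lupron 1 was higher and 14 lower (median −0.69), and among Lupron tumours 8 were higher and 7 lower (median 0.0067), with 0 passing in either. Smpdl3a, a phosphodiesterase that LXR induces, was at −1.42 ± 0.37 (edgeR adjusted p = 0.0902), and Apoc2, which activates lipoprotein lipase, at −1.17 ± 0.59 (0.299). Of 13 receptor genes, 1 passed, the scavenger receptor Msr1, which fell by 2.12 ± 0.47 (0.0488). It passed in 2 of 12 fits, without IgG replicate 1 or 3, and the list's median was −0.03 (−0.14 without Lupron and 0.20 among Lupron tumours).

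Of 12 genes of sterol transport, storage and oxidation, 1 passed: Cyp27a1, the enzyme that makes a side-chain oxysterol that activates LXR, fell by 2.17 ± 0.40 (edgeR adjusted p = 0.0224). It had 7.77 ± 2.98 CPM under IgG, 1.59 ± 0.94 under anti-CSF1, 5.30 ± 2.43 under Lupron and 1.28 ± 0.43 under both (SD, n = 3). All 6 antibody tumours lay below the others, and the call held in 5 of 12 fits. It ended when replicate 2 or 3 of anti-CSF1 or of Lupron, or any single combination library, was left out. The median of that list was 0.24, with 8 estimates higher and 4 lower.

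Of 9 lipases and partners, 0 passed, with a median of −0.26 (−0.32 without Lupron and 0.21 among Lupron tumours). Of the 9, 6 had an unadjusted p under 0.05 (19% of tested genes), as did 4 of the 13 receptor genes and 4 of the 12 sterol genes. In the lipase list there were 5 without Lupron (22.8%) and 0 among Lupron tumours (4.26%). Within IgG, Lipe ran from 6.54 to 51.8 CPM and Lipg from 14.0 to 40.9 CPM. The dependence of this list on IgG replicates 2 and 3 was not tested. Lipe, the hormone-sensitive lipase of fat cells, was at −1.61 ± 0.49 (edgeR adjusted p = 0.136) and Lipg, endothelial lipase, at 1.02 ± 0.32 (0.144). Of 5 tested other lipoprotein components, 0 passed and 0 had an unadjusted p under 0.05, with a median of 0.09. Clu, another apolipoprotein, was at 0.71 ± 0.37 (0.312) and the receptor gene Apobr at 0.38 ± 0.32 (0.515).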

How the data were processed

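The authors deposited raw read counts per gene for 12 libraries (23479 symbols), not normalized. Per the submitters' processing notes, reads were handled with bcl2fastq 2.20.0.422, cutadapt 1.8.1 and HTSeq 0.6.1 on mm10. The library kit was NuGen Ovation Mouse RNA-Seq, per the labels' protocols. Not given in the sources used here were the aligner, the annotation and the use of strand, so reads of overlapping genes cannot be told apart. Total counts per library ran from 20584363 to 29965355. All 66 pairs of libraries differed beyond sampling noise (chi-square over its degrees of freedom at least 38.0).

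The fits used edgeR 4.0.16 (R 4.3.3): its filter on low counts (15082 genes kept), TMM scaling, 1 mean per group over all 12 libraries, and the robust quasi-likelihood F test, two-sided, with Benjamini-Hochberg adjustment over all genes tested and a threshold of 0.05. The code was tested on simulated data. The 7 comparisons were the antibody and Lupron averaged, 4 of a pair of groups, and their interaction. CPM use TMM-scaled totals. Intervals use the fit's degrees of freedom. Alternatives were DESeq2 1.42.0's scaling and test, no filter, 1 CPM in 3 libraries, the compared groups only, a replicate block over all 12 libraries and leaving out each library. Between the Lupron and Lupron/anti-CSF1 groups all 3 same-numbered pairs deviated together (r = 0.217, 0.195 and 0.252 for replicates 1, 2 and 3). Pairs of unlike number were not compared, so a pairing is not shown, and the labels state none. The block changed no call of that comparison. Leaving out IgG replicates 2 and 3 together was chosen after seeing the data, and 1 IgG tumour is then assumed to vary like other groups.

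The genes, lists and tests were chosen with earlier results of these data known. All 10 genes are named. From each pathway list every gene called in the averaged antibody comparison is named, and where none was, the 2 with the smallest p. The genes most like Apoe and Lpl are the 5 tested genes with a mean of at least 1 CPM and the highest Pearson's r of log2(CPM + 1), without predicted genes, Riken clones and antigen receptor segments. Of 121 list entries, 119 matched by symbol, 1 by an older symbol (Emr1 for Adgre1) and 1 was not matched. The values of 1 matched gene, and of its list as a whole, are not reported here. Exon lengths and positions come from GENCODE M21, which uses the same build, and promoter windows (250 bases before to 50 after a start) from RefSeq on GRCm38.p6.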

Additional observations from a re-analysis of the deposited data

How the results depend on the processing

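The counts of the 10 genes called moved with the test and with single libraries. For the averaged antibody effect, DESeq2 called 6 in place of 3, and fits without 1 library called 1 to 6. It was 1 when replicate 2 or 3 of anti-CSF1, replicate 2 of Lupron or replicate 2 of the combination was left out. Those fits called 83, 65, 110 and 84 of all genes. Without IgG replicate 1 the count was 6, where 1577 of all genes were called. For anti-CSF1 against IgG the count was 5 with DESeq2 and 0 to 5 without 1 library. For the combination against Lupron it was 2 with DESeq2 or without IgG replicates 2 and 3, 1 with RLE scaling, the filter at 1 CPM or the compared groups only, and 0 to 2 without 1 library. For Lupron against IgG and the interaction DESeq2 called 2 each, and the former had 0 to 2 without 1 library.

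Over all genes, the averaged antibody effect had 282 calls, 1442 with DESeq2, 151 with the replicate block and 65 to 1577 without 1 library. Anti-CSF1 against IgG had 1, with 1855 by DESeq2, 2 with RLE scaling or the filter at 1 CPM, 7 without IgG replicates 2 and 3, 0 with the compared groups only or the replicate block, and 0 to 2611 without 1 library. The combination against Lupron had 0, with 238 by DESeq2, 5 with RLE scaling or the filter at 1 CPM, 2 without a filter, 204 with the compared groups only, 214 without IgG replicates 2 and 3, and 0 to 210 without 1 library. DESeq2 called 11, 429, 6 and 209 for Lupron averaged, Lupron against IgG, the combination against anti-CSF1 and the interaction, and fits without 1 library 0 to 2, 0 to 653, 0 and 0 to 5. The cause was not tested.

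Signs turned only for estimates that did not pass. Without IgG replicates 2 and 3 these were the antibody effect on Lipa averaged (−0.0097) and, without Lupron, on Nr1h2 (0.034) and Scarb1 (0.0059), the Lupron effect on Apoe (−0.063) and Lpl (0.72), and the interaction of Abcg1 (−0.14). Scarb1 without Lupron was at 0.0055 with no filter and 0.012 with the replicate block. Over fits without 1 library, Scarb1 ran from −0.056 to 0.26 for the averaged antibody, −0.17 to 0.20 without and −0.071 to 0.53 with Lupron, −0.099 to 0.21 for Lupron and −0.0301 to 0.54 for the interaction. Nr1h2 without Lupron ran from −0.13 to 0.088. With Lupron, Apoc1 ran from −0.53 to 1.47, Lpl from −0.12 to 1.39 and Mylip from −0.12 to 0.41. Apoe under Lupron ran from −0.014 to 0.23, and the interaction of Abcg1 from −0.34 to 0.36.

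Over all 18 pairs of same-numbered tumours the correlation of deviations from the group means ran from −0.30 to 0.51, with 8 above 0.1, so over the 4 groups the replicate block is only a check. With the block 2 members stayed called in the averaged antibody comparison, Apoe (adjusted p = 0.0122) and Nr1h3 (0.0461).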

Other observations

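Among the genes of sterol transport, Npc1 and Stard4 stood the other way from the genes that fell. They were chosen after their values were seen. NPC1 moves cholesterol out of lysosomes and STARD4 carries it between membranes inside the cell. In both, each of the 6 antibody tumours was higher than each of the 6 others, as for 0.703% of tested genes. The averaged antibody effect was 0.54 ± 0.17 for Npc1 and 0.61 ± 0.19 for Stard4, with edgeR adjusted p = 0.146 and 0.139, so neither passed.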
